A study of Homo sapiens with 3 samples.

Results

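Radial glia and astrocyte markers were followed in 3 single-cell libraries made while human fibroblasts were cultured towards neurons. The 10 genes, FABP7, PTPRZ1, SLC1A3, GFAP, S100B, AQP4, TNC, HOPX, MSI1 and PROM1, were taken by name from the gene tables of the 3 libraries. All 10 were found, of 32732 genes that the 3 tables share. Their detection was then set beside that of SOX2, a transcription factor of neural progenitors, in day 5 cells of at least 2155 UMIs. A UMI (unique molecular identifier) is a tag that counts each captured RNA molecule once.

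Day 0 was labelled BJ, an established line of human foreskin fibroblasts, and days 3 and 5 were labelled FiN cells of the type induced neuron. All 3 are labelled wild type with the treatment reprogramming, and 1 library was made per day. The labels give 1 culture protocol for all 3 libraries, without naming the day at which day 0 cells were taken: BJ cells on poly-D-lysine received an induction medium with 10 µM forskolin, an activator of adenylyl cyclase, then from day 2 a maturation medium with 10 µM forskolin, which was removed on day 5. The labels name no transgene. Per the labels, days 0 and 3 were nuclei suspensions and day 5 was dissociated cells, so the day and the preparation cannot be told apart. With 1 library per day there is no replicate, so no test was run between days, and all intervals below are 95% intervals that cover counting error only.

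On GRCh38 with GENCODE 29, the genes lie at chr6:122779475-122784074 (FABP7), chr7:121873089-122062036 (PTPRZ1), chr5:36606355-36688334 (SLC1A3), chr9:115019578-115118257 (TNC), chr12:120341330-120369180 (MSI1) and chr4:15963076-16084378 (PROM1). HOPX lies at chr4:56647988-56681899, GFAP at chr17:44903161-44916937, S100B at chr21:46598962-46605208 and AQP4 at chr18:26852038-26865818. All are protein-coding, and UMIs were summed over each whole gene.

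Radial glia are the neural stem cells of the developing brain. They line the ventricle, send a fibre to the surface and give rise to neurons and later to astrocytes. FABP7, a brain fatty acid-binding protein, PTPRZ1, a receptor tyrosine phosphatase, SLC1A3, the glutamate transporter GLAST, and PROM1, the membrane protein prominin, are made by radial glia, and MSI1 is an RNA-binding protein of neural progenitors. TNC, the matrix glycoprotein tenascin-C, and HOPX, a small homeodomain protein that does not bind DNA, mark outer radial glia. Both are also made outside the brain. GFAP, an intermediate filament protein, S100B, a calcium-binding protein, and AQP4, the water channel of astrocyte endfeet, come up as astrocytes mature.

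Promoters are shown for 3 genes that were higher at day 5 than at both earlier days, and for TNC, which was lower. They are 300 bases of RefSeq sequence on GRCh38.p14, running from 250 bases before to 50 bases after a gene start, 5′ to 3′ on the gene's strand. Capitals mark matches to ACAATG or ACAAAG, the cores bound by SOX factors, or to ATGCAAAT, the octamer bound by POU factors, each searched on both strands. FABP7 is at chr6:122779466-122779765 on the plus strand, the SLC1A3 entry with matches is at chr5:36606356-36606655 on the plus strand, PTPRZ1 is at chr7:121872911-121873210 on the plus strand and TNC is at chr9:115118108-115118407 on the minus strand.
FABP7: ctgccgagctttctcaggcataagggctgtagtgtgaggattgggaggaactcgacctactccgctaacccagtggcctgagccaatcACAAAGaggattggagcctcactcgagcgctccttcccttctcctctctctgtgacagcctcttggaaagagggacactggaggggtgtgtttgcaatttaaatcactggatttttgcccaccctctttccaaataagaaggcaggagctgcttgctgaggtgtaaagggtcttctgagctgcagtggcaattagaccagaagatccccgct
SLC1A3: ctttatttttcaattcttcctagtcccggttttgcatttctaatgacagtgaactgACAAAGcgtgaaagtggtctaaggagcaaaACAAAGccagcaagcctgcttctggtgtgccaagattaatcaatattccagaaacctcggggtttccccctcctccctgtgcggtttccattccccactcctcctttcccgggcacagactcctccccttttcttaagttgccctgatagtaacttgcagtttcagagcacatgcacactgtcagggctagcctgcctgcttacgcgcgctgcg
PTPRZ1: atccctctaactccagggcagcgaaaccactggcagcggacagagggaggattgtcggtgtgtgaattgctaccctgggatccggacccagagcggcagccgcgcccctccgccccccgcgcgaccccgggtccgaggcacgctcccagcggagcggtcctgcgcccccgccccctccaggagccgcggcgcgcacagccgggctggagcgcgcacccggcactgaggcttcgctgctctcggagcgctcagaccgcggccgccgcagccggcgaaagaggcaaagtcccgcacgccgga
TNC: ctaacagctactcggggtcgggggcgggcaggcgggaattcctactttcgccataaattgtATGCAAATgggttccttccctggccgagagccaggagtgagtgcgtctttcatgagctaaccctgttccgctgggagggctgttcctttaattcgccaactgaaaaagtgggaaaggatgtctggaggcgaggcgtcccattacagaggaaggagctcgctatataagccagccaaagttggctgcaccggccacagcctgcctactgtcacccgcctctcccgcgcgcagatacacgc
The FABP7 promoter held 1 SOX core, 162 bases before the RefSeq start. One of the 3 SLC1A3 entries held 2, at 194 and 164 bases before its RefSeq start. These cores lie within the GENCODE spans of FABP7 and SLC1A3 given above, which begin before these RefSeq starts. The TNC promoter held the octamer 189 bases before the start, and the PTPRZ1 promoter held none of the 3 motifs. RefSeq entries were matched for 7 of the 10 genes, and of these 15 entries 2 held a SOX core and 1 the octamer. Of 35116 RefSeq promoters of this length, 24.5% held a SOX core and 1.77% the octamer. A match is a run of letters and says nothing of whether a factor binds there.

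After filtering, the libraries held 16773 cells at day 0, 11454 at day 3 and 9219 at day 5, with 246546451, 18743865 and 51708522 UMIs and medians of 14039, 1324 and 4374 UMIs per cell. Levels are given as CPM, UMIs per 1000000 UMIs of the shared genes. The summed level of 12 fibroblast markers was 5325, 6188 and 381 CPM at days 0, 3 and 5, and that of 14 pan-neuronal markers was 94.4, 46.9 and 3421 CPM. Thus the day 3 library, labelled as induced neurons, had a fibroblast sum near that of day 0 and no higher pan-neuronal sum. Single fibroblast markers differed. Of the 12, 3 were higher and 3 lower at day 3 than at day 0 by the rule given below. COL1A1 was at 2027 CPM at day 0 and 380 CPM at day 3, and COL3A1 at 122 and 979 CPM. MALAT1, a nuclear RNA, took 3.14%, 21.6% and 7.35% of UMIs. Mitochondrial genes took 6.45%, 0.745% and 5.01%, and ribosomal protein genes 17.1%, 4.31% and 2.14%, at days 0, 3 and 5. Days 0 and 3 thus differed in these shares although both are labelled nuclei suspensions, so they cannot be taken as like preparations. The kept cells of any pair of libraries shared at most 63 cell barcodes, at most 0.550% of either.

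Of the 10 genes, 5 were higher at day 5 than at both earlier days: FABP7, PTPRZ1, SLC1A3, MSI1 and PROM1. TNC was lower, and the other 4 did not reach 10 CPM in the days compared. A gene was called higher or lower when its CPM differed at least 2-fold, its larger CPM was at least 10 and its Poisson intervals did not overlap. By this rule 36.5% of the 12623 genes that reached 10 CPM were higher and 28.7% lower at day 5 than at day 3. Against day 0, 49.1% of 12084 genes were higher and 26.0% lower at day 5. The median log2 difference over all tested genes was 0.16 for day 5 against day 3 and 0.93 for day 5 against day 0.

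**Figure D1:**
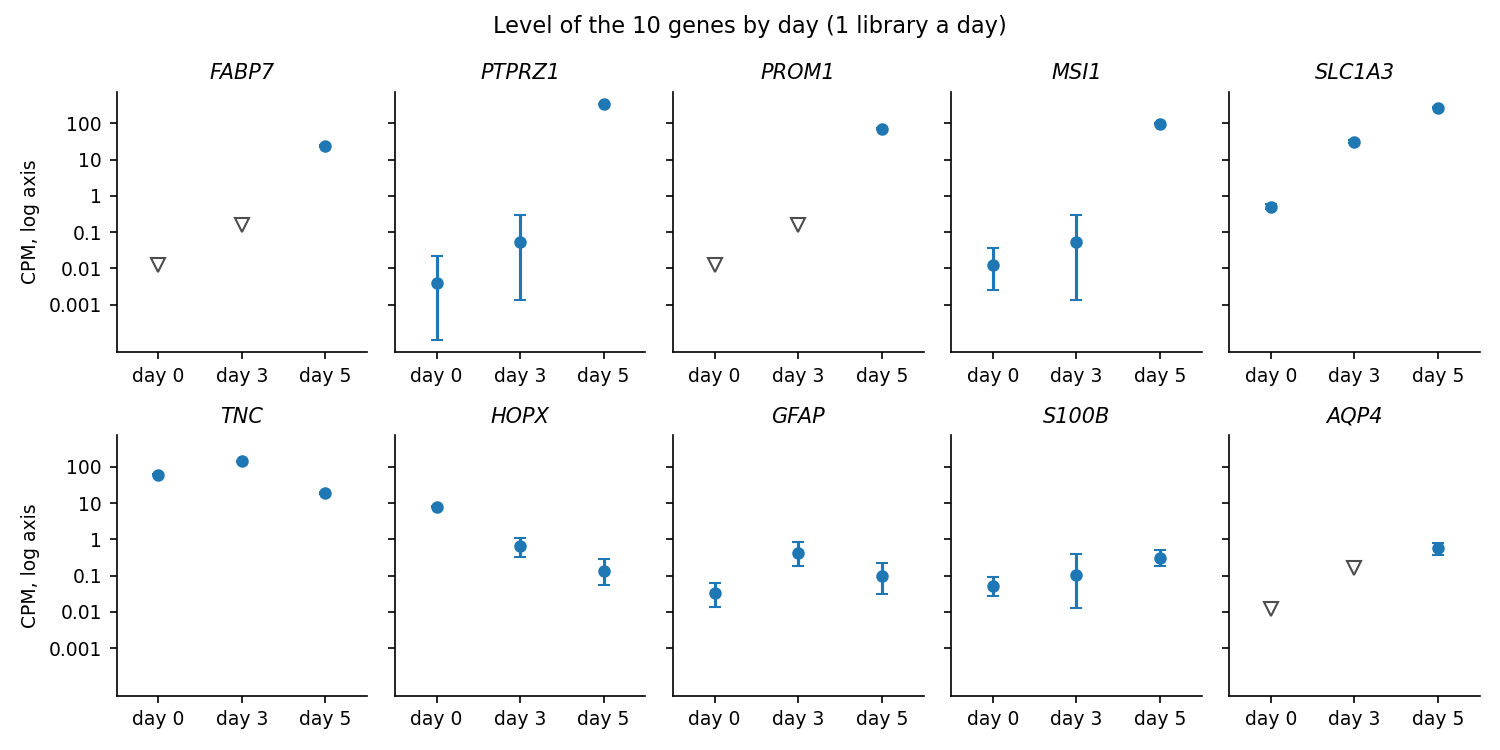
Level of each gene in CPM on a log axis at days 0, 3 and 5, 1 library a day. Bars are exact 95% Poisson intervals, and open triangles mark the level of 3 UMIs where none was counted. FABP7, PTPRZ1, PROM1 and MSI1 were at 3 UMIs or fewer until day 5, SLC1A3 was higher at each later day and TNC was highest at day 3.

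PTPRZ1 was counted at 1 UMI at day 0, 1 UMI at day 3 and 17491 UMIs at day 5, which is 343 CPM (338 to 349). Its ratio of day 5 to day 3 was 6427 with an interval of 1153 to 253851, which is wide because it rests on a single day 3 UMI. PROM1 had 0 UMIs at days 0 and 3 and 3647 UMIs, 71.6 CPM (69.3 to 74.0), at day 5. Both genes were thus at the limit of detection before day 5. The limit that 3 UMIs set was 0.0122 CPM at day 0 and 0.160 CPM at day 3, so PROM1 was at least 447-fold higher at day 5 than at day 3.

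MSI1 had 3 UMIs at day 0, 1 UMI at day 3 and 4952 UMIs at day 5, where its level was 97.2 CPM (94.6 to 99.99). FABP7 had 0, 0 and 1221 UMIs, or 23.98 CPM (22.7 to 25.4) at day 5, which was 149.5 times or more the day 3 level. SOX2 itself had 0 UMIs at days 0 and 3 and 3900 UMIs, 76.6 CPM, at day 5. These 3 genes and SOX2 were thus not separable from absence before day 5. At 1000 UMIs a cell, at least 1 UMI was found in 26.3% of day 5 cells for PTPRZ1, 8.93% for MSI1, 6.96% for PROM1, 2.94% for FABP7 and 7.90% for SOX2. Among the 16773 cells of day 0, no cell had a UMI of FABP7 or PROM1. By the limit of 3 cells, this allows up to 0.0179% of cells with a UMI, and it sets no limit on cells that express the genes without a captured UMI.

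SLC1A3 was the member with a step at each day. It had 125 UMIs and 0.507 CPM (0.422 to 0.604) at day 0, 594 UMIs and 31.7 CPM (29.2 to 34.4) at day 3, and 13935 UMIs and 274 CPM (269 to 278) at day 5. The level was 62.6-fold (51.5 to 76.5) higher at day 3 than at day 0, and 8.62-fold (7.94 to 9.37) higher at day 5 than at day 3. The size of the first step depended on the processing. Its log2 difference of 5.97 ran from 4.77 with TMM scaling to 6.66 with cells thinned to 1000 UMIs. At 1000 UMIs a cell the share of cells with a UMI was 0.0278%, 2.57% and 20.6% at days 0, 3 and 5. The day 3 share leaves out 2999 cells under 1000 UMIs. Many of them came from the day 3 cluster 3 described below, which held 78.1% of the SLC1A3 UMIs and had a median of 988 UMIs. The 2.57% is thus not a share of all day 3 cells. Without thinning, 111 of 16773, 527 of 11454 and 5050 of 9219 cells had a UMI at days 0, 3 and 5, at unequal depths. GLAST takes up glutamate and is kept from radial glia into astrocytes.

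TNC ran the other way. Its level was 61.3 CPM (60.3 to 62.3) at day 0, 145 CPM (140 to 151) at day 3 and 19.2 CPM (18.1 to 20.5) at day 5, from 15114, 2712 and 980 UMIs. It was 7.53-fold (6.999 to 8.11) lower at day 5 than at day 3 and 3.19-fold (2.99 to 3.40) lower at day 5 than at day 0. SLC1A3 and TNC were the 2 genes called higher at day 3 than at day 0, where 37.6% of 10431 tested genes were higher and 19.1% lower. The TNC call at day 3, a log2 difference of 1.24, fell under 2-fold with the strict filter (0.91), with TMM scaling (0.04), with median-of-ratios scaling (0.08) and with totals that leave out mitochondrial and ribosomal genes (0.93).

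HOPX was a day 0 gene here. It had 1962 UMIs and 7.96 CPM (7.61 to 8.32) at day 0, 12 UMIs and 0.641 CPM at day 3, and 7 UMIs and 0.137 CPM at day 5. The level was 12.4-fold (7.09 to 24.1) lower at day 3 than at day 0, but it lay under the limit of 10 CPM, so 0 genes counted as lower at day 3. Under the limit of 1 CPM in place of 10, HOPX was called lower at both later days. By CPM, HOPX was thus highest at day 0 and TNC in the day 3 library. The 7 day 5 UMIs of HOPX stood in 6 of 9219 cells. Of 8 other outer radial glia genes that reached 10 CPM, 2 were higher and 3 lower at day 5 than at day 3.

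The 3 markers of mature astrocytes stayed near the limit of detection. GFAP had 8, 8 and 5 UMIs at days 0, 3 and 5, S100B had 13, 2 and 16, and AQP4 had 0, 0 and 29. At day 5 these were 0.0982 CPM (0.0319 to 0.229) for GFAP, 0.314 CPM (0.180 to 0.510) for S100B and 0.569 CPM (0.381 to 0.818) for AQP4. The largest count of any of the 3 in a single day 5 cell was 2 UMIs. SLC1A3, GFAP, AQP4 and TNC overlap genes on the opposite strand. SLC1A3, HOPX and PROM1 also overlap a gene on their own strand, and SOX2 lies within SOX2-OT. No source used here says whether strand was used in counting, so reads of the opposite-strand pairs cannot be told apart, and the split of reads between genes on 1 strand is uncertain.

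The day 5 library was deposited with all of its barcodes, so the levels in cells could be set beside those in 50562 barcodes of 500 to 1000 UMIs, which lie below the cell call and can hold free RNA, debris or small cells. FABP7 had 23.98 CPM in cells and 126 CPM in these barcodes, a ratio of 0.190. SOX2 had 76.6 CPM in cells and 277 CPM in the barcodes, a ratio of 0.276. SLC1A3 was at a higher level in cells, at 274 CPM against 136 CPM, a ratio of 2.01, and so was MSI1, at 97.2 CPM against 76.0 CPM, a ratio of 1.28. PTPRZ1 (343 CPM in cells and 336 CPM in the barcodes) and PROM1 (71.6 and 71.3 CPM) had ratios near 1, and TNC, at 19.2 CPM in cells and 26.4 CPM in the barcodes, had a ratio of 0.728.

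A UMI of FABP7 was found in 2.94% of cells at 1000 UMIs, against 8.98% of the low-count barcodes at a median of 753 UMIs. A UMI of SOX2 was found in 7.90% of cells, against 18.2% of the barcodes. For TNC the shares were 1.59% and 1.94%. By this measure the shares of cells with FABP7, SOX2 or TNC did not exceed those of the low-count barcodes. PTPRZ1 (26.3% and 21.4%), SLC1A3 (20.6% and 9.43%), MSI1 (8.93% and 5.52%) and PROM1 (6.96% and 5.11%) had larger shares in cells. If cells held the profile of these barcodes, at most 15.7% of their UMIs could come from it, a limit set by TAGLN, which encodes a smooth muscle and fibroblast protein. At that limit the profile would supply 19.9 of the 23.98 CPM of FABP7 and 43.6 of the 76.6 CPM of SOX2. For the others it would supply 52.8 of 343 CPM for PTPRZ1, 21.4 of 274 CPM for SLC1A3, 11.96 of 97.2 CPM for MSI1, 11.2 of 71.6 CPM for PROM1 and 4.16 of 19.2 CPM for TNC. With that share subtracted, FABP7 fell under 10 CPM and 4 of the 10 genes, in place of 5, were called higher at day 5 than at either earlier day.

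Over all genes tested the median ratio of cells to low-count barcodes was 0.361 for 2435 genes with under 10000 intron bases and 2.73 for 2822 genes with over 100000. The genes of the set followed this order in part. SOX2 has no intron, FABP7 has 1872 intron bases, S100B 4799 and AQP4 7786, and their ratios were 0.276, 0.190, 0.198 and 0.385. MSI1, with 24761 intron bases, was at 1.28, SLC1A3, with 75715, at 2.01, TNC, with 89044, at 0.728, PROM1, with 113869, at 1.00 and PTPRZ1, with 179031, at 1.02. HOPX, with 26159 intron bases, was at 0.372 from 7 UMIs in cells, and GFAP, with 1667, the fewest of the 10 genes, was at 1.86 from 5 UMIs in cells and 2 in the barcodes. The nuclear RNA MALAT1 was 3.37-fold higher in cells, while NES and VIM, intermediate filament genes of radial glia, had ratios of 0.218 and 0.178. The part of intron counting or of nuclear RNA in these ratios was not tested.

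**Figure D2:**
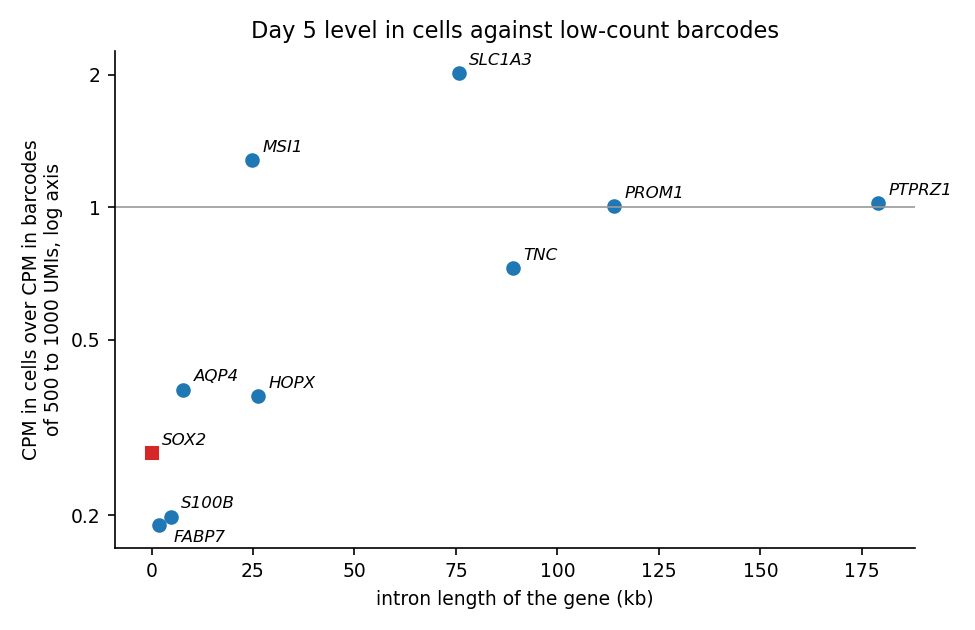
Ratio of the level in day 5 cells to that in day 5 barcodes of 500 to 1000 UMIs (log axis) against the intron length of each gene in kb. Each circle is a gene of the set and the square is SOX2. GFAP, with 2 UMIs in the low-count barcodes, is left out, and HOPX rests on 7 UMIs in cells. FABP7, S100B and SOX2 lie under 0.3 and SLC1A3 at 2.01.

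Co-detection with SOX2 was read at 2000 UMIs a cell, so that deep cells did not count as positive for everything. At this depth 1409 day 5 cells had a SOX2 UMI and 7810 had none. A gene counted as over-represented when its share was at least 1.5 times as high in SOX2 cells and the exact binomial intervals did not overlap. Of the 10 genes, 6 were seen in at least 1% of cells and 0 were over-represented. Over all 12751 genes seen in at least 1% of cells, 0.227% (29 genes) were. At the limit given above, the low-count barcode profile would supply 43.6 of the 76.6 CPM of SOX2 in cells. Cells with a SOX2 UMI may thus include cells that do not express it, and cells without one may express it. The split therefore cannot show that the genes are unlinked to SOX2 expression.

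PTPRZ1 was detected in 44.7% of SOX2 cells (42.1 to 47.4) and in 42.0% of cells without SOX2 (41.0 to 43.2). SLC1A3 was detected in 34.7% of SOX2 cells and 33.8% of cells without, MSI1 in 18.9% and 16.5%, and PROM1 in 13.6% and 12.7%. FABP7 was found in 4.90% of SOX2 cells and 5.54% of cells without SOX2, and TNC in 3.55% and 2.75%. The 6 ratios ran from 0.883 for FABP7 to 1.29 for TNC. Across all genes the median ratio was 1.01, with 0.763 at the 5th and 1.28 at the 95th percentile, so 5 of the 6 genes lay within this range and TNC just above it. GFAP and HOPX were seen in 0 SOX2 cells, S100B in 3 and AQP4 in 1.

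**Figure D3:**
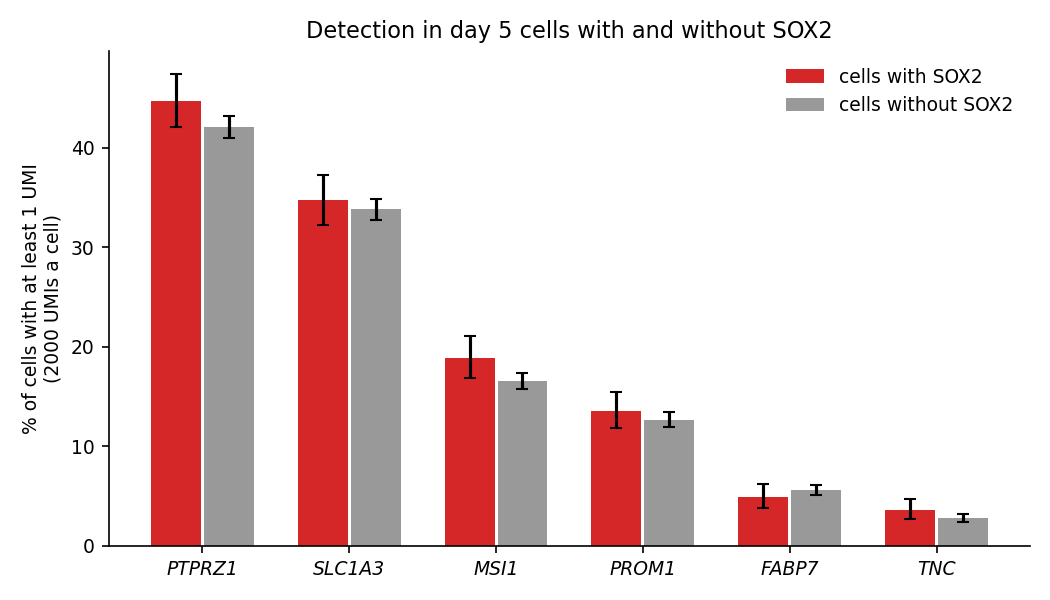
Percent of day 5 cells with at least 1 UMI of each gene among 1409 cells with SOX2 and 7810 cells without, at 2000 UMIs a cell. Bars are exact 95% binomial intervals. PTPRZ1 was found in 44.7% and 42.0% of these cells and TNC in 3.55% and 2.75%.

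The levels were also read by SOX2 count. In cells as deposited with 0, 1, 2 and at least 3 SOX2 UMIs, the level of SLC1A3 was 252, 293, 315 and 313 CPM and that of TNC 17.3, 20.01, 21.4 and 36.6 CPM (15.9 to 18.8 with none and 28.0 to 47.0 with at least 3). MSI1 stood at 93.4, 97.2, 104 and 112 CPM and PROM1 at 69.3, 71.3, 72.6 and 82.8 CPM. TNC thus differed more than 2-fold between the outer classes, while the intervals of MSI1 and of PROM1 overlapped. PTPRZ1 stood at 340, 341, 330 and 302 CPM and FABP7 at 25.6, 21.2, 18.2 and 16.2 CPM, so both were lowest where SOX2 was highest. The 162 cells of the last class had a median of 8238 UMIs against 4126 in cells without SOX2, and the part of depth in these differences was not tested.

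Splitting the same cells by DCX, a microtubule protein of young neurons, gave larger differences for SLC1A3, PROM1, MSI1 and TNC. No share over all genes is set beside this split. SLC1A3 was detected in 21.5% of 1998 DCX cells (19.7 to 23.3) and in 37.4% of 7221 cells without DCX (36.2 to 38.5), a ratio of 0.575. PROM1 was detected in 8.61% of DCX cells and 14.0% of cells without, a ratio of 0.617. MSI1 was at 13.6% and 17.8%, a ratio of 0.766, and TNC at 2.10% and 3.09%, a ratio of 0.681, with overlapping intervals for TNC. PTPRZ1 (44.5% and 41.9%) and FABP7 (5.01% and 5.57%) had near equal shares in both. SOX2 was detected in 14.0% of DCX cells (12.5 to 15.6) and 15.6% of cells without DCX (14.8 to 16.5), with overlapping intervals.

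Day 5 cells were then grouped into 11 clusters made without the 10 genes and SOX2, numbered 0 to 10 and described by leading genes or by marker lists. Clusters 3, 4, 5, 7 and 8 had at least 3 pan-neuronal markers 2-fold above other cells and are neuron-like. Cluster 6, with 2741 cells the largest, was led by CATSPERB and DGKG, cluster 0 by SMOC1, and cluster 2 held 5 of 10 cycling markers. Cluster 1 held 5 of 12 fibroblast markers at 10 CPM or more and 2-fold above other cells. Clusters are of 1 library, so the levels are a description.

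PTPRZ1 and SLC1A3 peaked in different clusters. PTPRZ1 was at 736 CPM in cluster 0 and 558 CPM in cluster 2, and lowest at 131 CPM in cluster 6. SLC1A3 was at 475 CPM (464 to 486) in cluster 6, 276 CPM in cluster 0 and 237 CPM in cluster 2, and at 44.2 and 39.0 CPM in the neuron-like clusters 7 and 8. The neuron-like cluster 3 kept PTPRZ1 at 504 CPM with SLC1A3 at 95.7 CPM. Of the 1795 cells with at least 3 SLC1A3 UMIs, 58.3% lay in cluster 6, which held 29.7% of all cells, while 9.21% of the 2475 cells with at least 3 PTPRZ1 UMIs lay there.

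TNC and MSI1 followed SLC1A3 into cluster 6. TNC was at 40.5 CPM in cluster 6 and 34.5 CPM in cluster 1, and between 4.29 and 15.2 CPM in the other 9. Of 79 cells with at least 3 TNC UMIs, 63 lay in cluster 6, 10 in cluster 1, 5 in cluster 5 and 1 in cluster 4. The summed fibroblast level was highest in cluster 10 (926 CPM), where TNC was at 9.47 CPM, and stood at 711 CPM in cluster 1, 576 CPM in cluster 9 and 466 CPM in cluster 6, against 185 to 361 CPM in the other 7. Cluster 6 also had the highest sums of the ependymal and choroid markers, 116 CPM against 37.0 to 96.0 CPM elsewhere, and of the cartilage and tendon markers, 324 CPM against 67.6 to 275 CPM, with COL2A1 the 1 gene of that list at 10 CPM or more. The neural progenitor markers too had their highest sum in cluster 6, 4132 CPM against 483 to 2302 CPM elsewhere. RFX4 alone was at 3852 CPM in cluster 6, while PAX6 was at 12.1 CPM, against 50.8 CPM in other cells. The part of these other markers in the levels of the 10 genes was not tested. MSI1 was at 132 CPM in cluster 6 and lowest in cluster 8, at 38.3 CPM. PROM1 was at 118 CPM in cluster 1 and 117 CPM in cluster 2, and lowest in cluster 7, at 20.5 CPM.

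**Figure D4:**
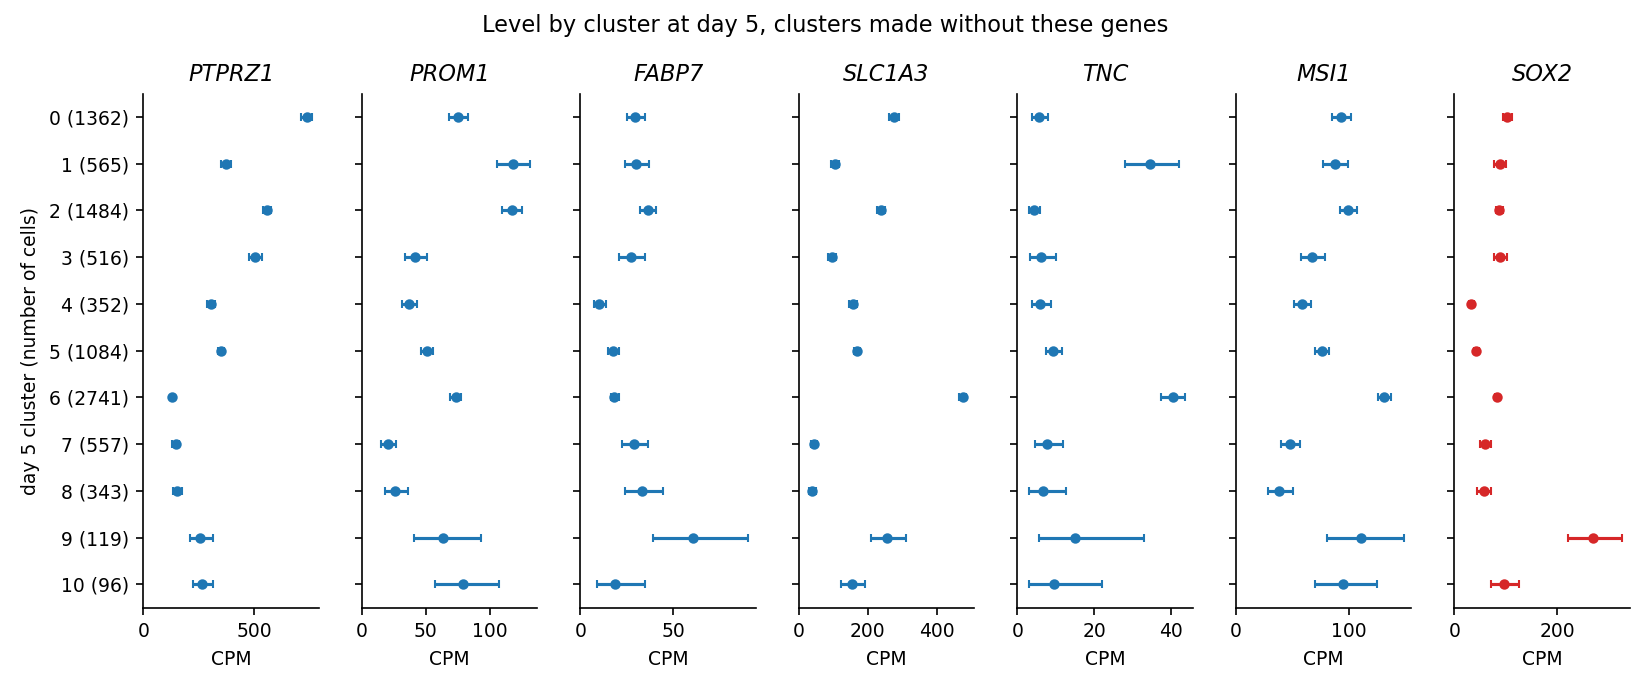
Level in CPM of 6 genes of the set (blue) and SOX2 (red) in the 11 day 5 clusters, with cell numbers in parentheses and exact 95% Poisson intervals. Each panel has its own axis from 0. PTPRZ1 peaks in cluster 0, SLC1A3, TNC and MSI1 in cluster 6, PROM1 in clusters 1 and 2, and FABP7 and SOX2 in cluster 9.

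Cluster 9, with 119 cells, was the one cluster where SOX2 was at 2-fold or more above the other cells (270 CPM). Of the 6 genes, 1 (FABP7, at 60.7 CPM) was highest there, where 38.2% of the 10497 genes compared also had their highest level. Cluster 9 had the lowest median depth of the 11, 2951 UMIs, and the highest mitochondrial share, 9.89%. The lowest FABP7 and SOX2 levels, 10.1 and 33.3 CPM, were in cluster 4, which had the highest median depth, 9047 UMIs. Counted per 100 cells, FABP7 ran from 10.4 to 20.2 UMIs over the 11 clusters, a 1.94-fold range, while PTPRZ1 ran from 59.8 to 360, SLC1A3 from 15.2 to 283 and TNC from 2.16 to 24.1 UMIs. SOX2 ran from 22.2 to 53.1 UMIs per 100 cells in 10 clusters and was at 89.9 in cluster 9. The rank correlation of CPM with median depth over the 11 clusters was -0.78 for FABP7 and -0.65 for SOX2, and between -0.11 and 0.12 for the other 5.

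Pairs of the genes were also counted in the same cells at 2000 UMIs. PTPRZ1 and SLC1A3 met in 1346 cells, against 1328 expected from their shares, a ratio of 1.01 (0.960 to 1.07). TNC and PTPRZ1 met less often than expected, at 0.640 (0.501 to 0.806), and TNC and MSI1 more often, at 1.52 (1.18 to 1.93). SLC1A3 and MSI1 had a ratio of 1.14 (1.05 to 1.24). None of the 10 genes was seen in 26.4% of cells, 1 in 41.2%, 2 in 24.8%, 3 in 6.64% and 4 in 0.955%. DCX was found in 29.6% of cells with none of the genes and in 13.6% of the 88 cells with 4. SOX2 was found in 14.6%, 14.6%, 16.5% and 16.8% of cells with 0, 1, 2 and 3 of the genes. It was found in 23.9% of the 88 cells with 4, a small class.

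At day 3 the SLC1A3 signal came from a minority of cells. Of 5 clusters made in the same way, cluster 3, led by RORB with 2513 cells, had SLC1A3 at 146 CPM (133 to 160). The others had 6.92 to 17.3 CPM, and cluster 3 held 78.1% of the SLC1A3 UMIs with 21.9% of the cells. Its fibroblast markers summed to 6323 CPM, against 5017 to 8916 CPM in the other clusters, and its median depth was 988 UMIs. Its cycling markers summed to 1730 CPM, against 285 to 755 CPM in clusters 0 to 2 and 2163 CPM in cluster 4, and its Schwann and neural crest markers to 61.8 CPM, against 11.2 to 16.3 CPM in the others. The part of these markers in the SLC1A3 level was not tested. Of the 30 other radial glia and progenitor genes, 15 reached 10 CPM in cluster 3 or in the other cells, and 4 (SOX9, HES1, ZIC2 and EMX2) were at least 2-fold higher in cluster 3 and 0 lower. Of the 25 other astrocyte genes, 11 reached 10 CPM, and 3 (NFIA, NFIB and NFIX) were higher and 0 lower. In each list 6 genes were at 0 UMIs in cluster 3, among them HES5, SOX1, MLC1 and BCAN. Over all genes, 10.8% of the 10237 at 10 CPM were 2-fold higher and 6.96% lower in cluster 3. These genes could take part in the clustering, so their levels are a description. HES1 was at 423 CPM, against 18.4 CPM in other cells, NFIB at 244 CPM, against 13.9 CPM, and SOX9 at 112 CPM, against 17.1 CPM, while NES was at 15.8 CPM, against 18.9 CPM, and CD44 at 226 CPM, against 295 CPM. These 5 were chosen after their values were seen. HES1 is a Notch target that holds progenitors undifferentiated, and NFIB and SOX9 are transcription factors of gliogenesis.

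**Figure D5:**
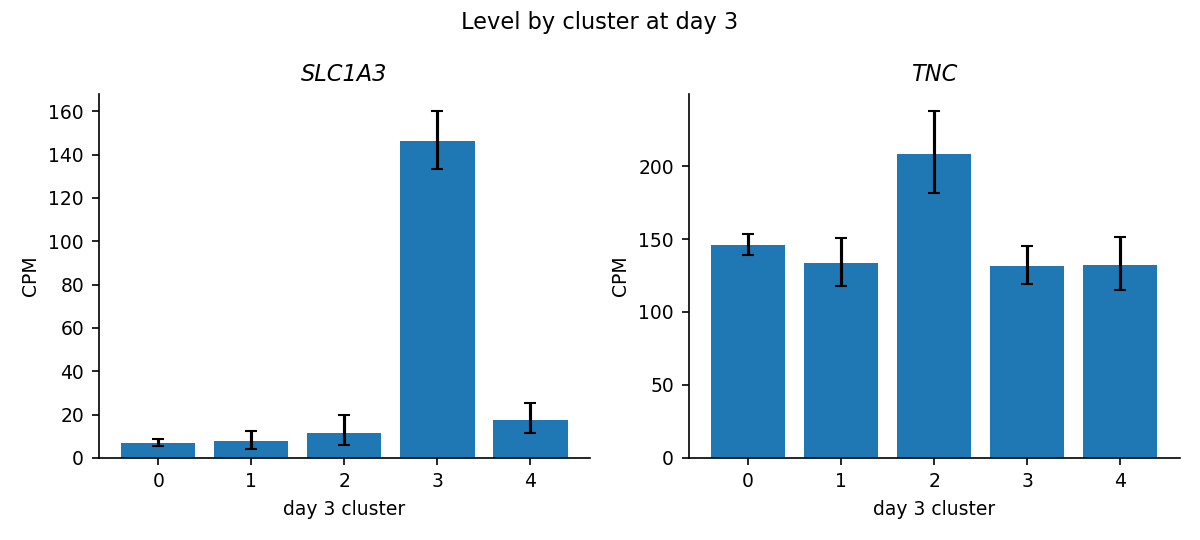
Level in CPM of SLC1A3 (left) and TNC (right) in the 5 day 3 clusters, with exact 95% Poisson intervals. SLC1A3 was at 146 CPM in cluster 3 and at most 17.3 CPM elsewhere, while TNC lay between 132 and 208 CPM in all 5.

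TNC at day 3 was spread over all 5 clusters, from 132 CPM in cluster 3 to 208 CPM in cluster 2, so it was as high in clusters with little SLC1A3 as in cluster 3. At day 0 TNC lay between 45.6 and 77.1 CPM in 5 clusters and at 7.68 and 12.4 CPM in clusters 0 and 1, whose cells had medians of 2151 and 901 UMIs and low fibroblast marker sums of 556 and 1217 CPM. HOPX at day 0 was highest in those 2 clusters, at 15.4 and 14.3 CPM, and 37.6% of its UMIs came from cluster 3, which held 10 of 10 cycling markers.

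Other genes of the same pathways were read as lists. They stand beside the 36.5% of all tested genes that were higher and 28.7% that were lower at day 5 than at day 3. The lists were chosen with earlier results of these data known, and some genes are shared between lists, so the counts are a description. Of 30 other radial glia and progenitor genes, 24 reached 10 CPM at day 5 or day 3, and 17 were higher and 3 lower at day 5, with a median log2 difference of 3.63. RFX4, a transcription factor of the neural tube, was at 1963 CPM at day 5, against 1.76 CPM at day 3, and ADGRV1, an adhesion receptor, at 1091 CPM, against 0.909 CPM. VIM, already the filament of fibroblasts, was at 1009 CPM at day 5 and 1404 CPM at day 3. Of 11 outer radial glia genes, 8 reached 10 CPM, and 2 (MOXD1 and PDGFD) were higher and 3 lower at day 5 than at day 3, with a median of -0.83.

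Among 25 other astrocyte genes, 17 reached 10 CPM, and 8 were higher and 4 lower at day 5 than at day 3, with a median of 0.77. These counts were near the 36.5% and 28.7% over all genes, so they are not a result about astrocyte genes. NFIA and NFIB, transcription factors that open gliogenesis, were at 601 and 182 CPM at day 5, against 64.6 and 53.0 CPM at day 3. MLC1, a membrane protein of astrocyte endfeet, was at 48.6 CPM at day 5 with 0 UMIs at day 3. CD44, a hyaluronan receptor that fibroblasts and astrocytes both make, was at 24.2 CPM at day 5, against 284 CPM at day 3.

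Of 15 ligands and partners of PTPRZ1 and TNC, 12 reached 10 CPM, and 6 were higher and 2 lower at day 5 than at day 3, with a median of 0.43, beside the same 36.5% and 28.7% over all genes. The adhesion molecules NCAM1 and NRCAM, which bind PTPRZ1, were at 806 and 299 CPM at day 5, against 5.18 and 2.19 CPM at day 3. MDK, the PTPRZ1 ligand midkine, was at 377 CPM at day 5, against 188 CPM at day 3, and its relative PTN at 37.4 CPM, against 73.7 CPM. ITGB1, an integrin subunit of tenascin receptors, was at 299 CPM at day 5, against 406 CPM at day 3. In the day 5 low-count barcodes MDK, PTN and ITGB1 were at 1365, 90.0 and 750 CPM, above their levels in cells. NCAM1 and NRCAM were at 533 and 148 CPM there, below theirs. The part of that profile in the day 5 levels of these genes was not tested, so the MDK difference may not be one of cells.

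Of 25 paralogs of the 10 genes, 13 reached 10 CPM, and 8 were higher and 3 lower at day 5 than at day 3, with a median of 1.78. MSI2 was at 996 CPM at day 5, against 226 CPM at day 3, and PTPRG, the closest relative of PTPRZ1, at 914 CPM, against 111 CPM. FABP5 was at 39.4 CPM, against 11.4 CPM, and S100A6, a calcium-binding protein that fibroblasts make, at 28.9 CPM, against 880 CPM. In the day 5 low-count barcodes FABP5 and S100A6 were at 225 and 165 CPM, above their levels in cells. MSI2 and PTPRG were at 264 and 334 CPM there, below theirs. The part of that profile in the day 5 levels of these paralogs was not tested, so the FABP5 difference may not be one of cells. At day 0 MSI2 and PTPRG were at 34.3 and 29.6 CPM, where MSI1 had 3 UMIs and PTPRZ1 1 UMI.

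Sums over markers of other cell types were often carried by 1 gene. The 8 oligodendrocyte precursor markers summed to 197 CPM at day 5, against 1299 CPM at day 3 and 78.3 CPM at day 0. LHFPL3 gave 152 CPM of the day 5 sum, and PDGFRA, which fibroblasts also make, gave 1281 CPM at day 3 and 52.7 CPM at day 0. OLIG1 and OLIG2, which define these cells, were at 0 UMIs on all 3 days. At day 5 the 6 microglia markers summed to 14.6 CPM (11.9 from P2RY12), the 8 Schwann and neural crest markers to 52.4 CPM and the 6 ependymal and choroid markers to 70.2 CPM (36.9 from DNAH9). The 6 cartilage and tendon markers summed to 188 CPM, of which COL2A1 gave 184 CPM, and the 6 melanocyte markers to 27.3 CPM. The 10 cycling markers summed to 611 CPM and the 8 neural progenitor markers to 2427 CPM, of which RFX4 gave 1963 CPM. Their part in the levels of the 10 genes was not tested.

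The genes whose levels across the 11 day 5 clusters were most like each member were found among 9739 genes at 10 CPM or more. Pearson correlations of log2(CPM + 1) over 11 clusters of 1 library are a description. TSPAN18, RGS20 and NOX4 followed PTPRZ1 (0.97 for each), and RBM26, MMAB and SLC20A2 followed SLC1A3 (0.97, 0.95 and 0.94). NEAT1, MYOF and SLC9A9 followed TNC (0.92, 0.91 and 0.89), and RAP2C-AS1, P4HA1 and HSCB followed MSI1 (0.99, 0.98 and 0.98). UACA, MRC2 and TTC23 followed PROM1 (0.96, 0.96 and 0.95), and TMSB15A, HSPH1 and PET100 followed FABP7 (0.97, 0.96 and 0.95). The correlation with SOX2 was 0.78 for FABP7, 0.59 for MSI1, 0.44 for PROM1, 0.36 for SLC1A3, 0.27 for TNC and 0.14 for PTPRZ1. FABP7 and SOX2 were both lower in deeper clusters, with rank correlations with median depth of -0.78 and -0.65. The part of depth in their correlation was not tested.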

How the data were processed

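Single-cell RNA libraries of days 0, 3 and 5, 1 each, were used as UMI counts per gene and barcode, which the authors deposited without normalization. Per the submitters' processing notes, Cell Ranger 4.0.0 and hg38 (GRCh38) were used. The use of introns and of strand in counting is not stated in these sources. Day 5 was deposited with 2037119 barcodes. Ranking the top 10000 by UMIs, 0.1 of their 99th percentile set the cell call (9304 barcodes, smallest 2155 UMIs). Kept cells had 500 UMIs or more, 300 genes or more and a mitochondrial share up to 20%. The strict filter tried as an alternative asked for 2000 UMIs, 1000 genes and a share up to 10%. No doublets were removed, and cells above the 95th percentile of UMIs were left out as an alternative.

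UMIs were summed over cells for CPM with exact Poisson intervals, and shares have exact binomial (Clopper-Pearson) intervals, with no test, since each group is 1 library. In calls, libraries under 3 UMIs were set to 3, and ratios against 0 are bounds from that level. Cells were thinned to 1000 UMIs between days (shallower cells left out: 2388, 2999 and 0 at days 0, 3 and 5) and to 2000 for SOX2. Clusters came from scanpy 1.11.5 (2000 variable genes without the 10 genes and SOX2, 30 components, 15 neighbours, Leiden resolution 0.5). TMM factors came from edgeR 4.0.16. Intron lengths and overlaps are from GENCODE 29 (GRCh38). The calling rules were tested on simulated data. The genes, lists, markers and rules were chosen with earlier results of these data known. From each list the 6 genes highest at day 5 and the 2 highest at day 0 could be named.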

Additional observations from a re-analysis of the deposited data

How the results depend on the processing

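The counts of 5 genes higher at day 5 than at day 0 and than at day 3 were 5 or 4 under the 9 alternatives run for each, with 4 where the low-count barcode profile was subtracted. The count lower at day 3 than at day 0 was 1 in place of 0 with TMM, with median of ratios, with mitochondrial and ribosomal genes left out of the totals, with cells thinned to 1000 UMIs and with a limit of 1 CPM, the gene being HOPX in each. For the same reason the count lower at day 5 than at day 0, 1 for TNC, was 2 under those 5 settings. The count higher at day 3 than at day 0 was 1 in place of 2, SLC1A3 alone, with the strict filter, with TMM, with median of ratios and with the totals reduced in the same way. The alternatives for these last 2 counts were chosen after seeing the data, as were those for the count lower at day 5 than at day 3, which was 1 (TNC) under all 9. For genes with at least 10 UMIs in each library, the median log2 difference was -0.39 under TMM, against 0.81 without it, for day 3 over day 0, and -0.42, against 0.71, for day 5 over day 0. The log2 difference of TNC at day 5 ran from -2.81 to -1.21 against day 0 and from -3.03 to -2.73 against day 3, and that of SLC1A3 from 7.94 to 9.89 and from 3.02 to 4.28. The count over-represented in SOX2 cells was 0 under all 6 alternatives, in which the ratio of TNC ran from 0.761 to 1.49, of FABP7 from 0.781 to 1.28 and of SLC1A3 from 0.894 to 1.22. The count highest in a SOX2 cluster was 0 in place of 1 when the 10 genes and SOX2 were kept among the variable genes, and 1 at Leiden resolution 1. No paired analysis was possible because each group is 1 library. Depth limits GFAP, S100B, AQP4 and HOPX at day 5, which rest on 5, 16, 29 and 7 UMIs.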
